A study of Mus musculus with 17 samples.

Results

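Adding IPI-549 to MSA2 was examined in dendritic cells derived from bone marrow (BMDC), which take up, process and present antigen to T cells. The comparison sets the 2 libraries titled as MSA2 plus IPI-549, all that carry that title for BMDC, against the 3 titled as MSA2 treated, so that 5 of the 17 RNA sequencing libraries of the series enter it. The other 12 are 3 untreated BMDC libraries (Control), which serve as background, and 9 libraries of spleen B cells, which were not used here. Groups were read from the titles, because the treatment label reads Control for every library. The series text states that the cells came from KPC mice, which develop pancreatic tumours, but WT is given as the genotype of every library. All groups share that origin. No group received IPI-549 alone, so the action of IPI-549 without MSA2 was not measured, and the labels give neither dose nor incubation time. They also do not say whether the libraries of a group came from separate mice or cultures, and the p-values may then reflect technical spread only. The 2 libraries with both agents are called the combination below.

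MSA2 is an orally available, non-nucleotide agonist of STING, an adaptor of the endoplasmic reticulum that normally responds to cyclic dinucleotides made by cGAS on cytosolic DNA. Active STING recruits the kinase TBK1, which phosphorylates IRF3 and drives Ifnb1, and it also feeds NF-κB. The secreted interferon then acts back on the cells through IFNAR and STAT proteins to turn on interferon-stimulated genes. IPI-549 (eganelisib) selectively inhibits PI3Kγ, a leukocyte enzyme that phosphorylates membrane lipids. Its catalytic subunit is encoded by Pik3cg and pairs with the regulatory subunits encoded by Pik3r5 or Pik3r6. PI3Kγ is switched on by G protein-coupled receptors, such as those for chemokines and complement, and by Ras. Its lipid product activates AKT, which holds FOXO transcription factors out of the nucleus and supports mTORC1.

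The 8 BMDC libraries held between 34760025 and 73166643 expected counts, with MSA2 replicate 2 the deepest. Levels are given in CPM, a counts-per-million measure scaled for library composition. Libraries of 1 group correlated at 0.989 to 0.993 on the log2 CPM scale, and MSA2 libraries correlated with combination libraries just as highly, at 0.989 to 0.993. Of the 17 listed dendritic cell markers, Itgax, Cd74, H2-Ab1 and Zbtb46 were present in all 8 libraries. Batf3 (4.64 to 7.09 CPM), Clec9a (3.35 to 6.89 CPM) and Xcr1 (0.0851 to 3.50 CPM) of the same list were low. The macrophage genes Csf1r, Adgre1 and Lyz2 were high. Flt3 stayed between 0.247 and 1.08 CPM, and the plasmacytoid marker Siglech reached no more than 0.0567 CPM, while Bst2, Tcf4 and Runx2 of the same list, which other cells also express, were at 15 CPM or more. The 12 T cell markers summed to 227 to 357 CPM, most of it Il7r (198 to 328 CPM) and Thy1 (11.3 to 18.1 CPM), and Cd3e, Cd3d and Cd3g did not exceed 0.346 CPM. The 10 NK cell markers summed to 0.762 to 1.52 CPM, mostly Klrb1c, with Ncr1, Gzma and Klra8 at 0 in all 8 libraries. Of the tested markers of these 3 cell types, 1 of 17 had an unadjusted p under 0.05 between combination and MSA2 (Lat, 0.39, adjusted p = 0.377). Higher at that threshold were 2 of 6 tested B cell markers (Blnk, 0.26, and Cd22, 0.32) and 2 of 10 stromal and endothelial markers (Col1a2, 0.94, and Cdh5, 0.55). So was 1 of 6 mast cell and basophil markers (Gata2, 0.35), against 4.54% of all tested genes. None of these 3 lists had a lower one. The part of all these cell types in the results was not tested. A reporter gene, eGFP, which the labels do not mention, stood between 47.3 and 63.9 CPM in every BMDC library. Control replicate 2 stood apart in interferon genes, with Ifnb1 at 11.2 CPM against 0 and 0.0577 CPM in the other Control libraries. In bulk RNA, a smaller number of expressing cells and less RNA per cell cannot be told apart.

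On the first principal component of all tested genes, which held 58.8% of the variance, the Control libraries stood at -50.9, -41.8 and -45.9 and the MSA2 libraries at 37.6, 28.8 and 33.1. The combination libraries lay at 21.2 and 18.0, on the MSA2 side of the axis but closer to Control than any MSA2 library. The second component, with 9.04% of the variance, separated no treatment group.

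**Figure D1:**
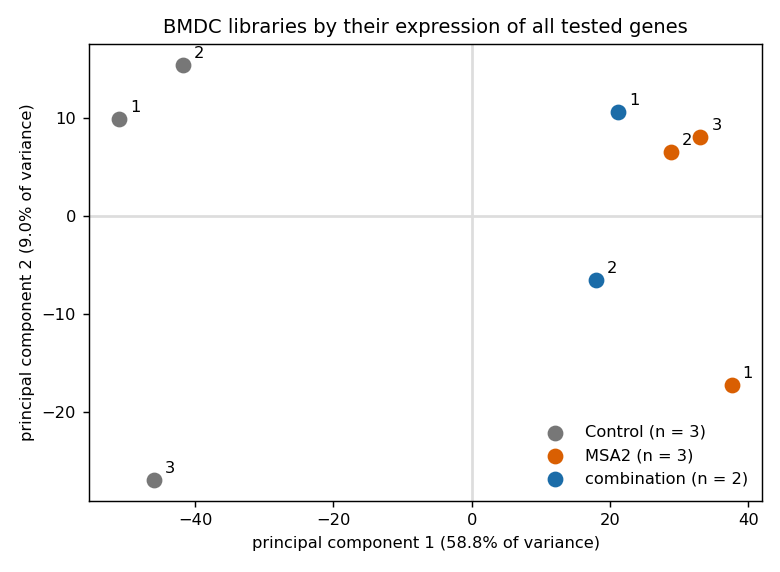
The 8 BMDC libraries by their scores on principal components 1 and 2 of log2 CPM (58.8 and 9.0% of the variance), each point a library with its replicate number. The combination libraries (21.2 and 18.0 on component 1) sit between the Control libraries and the MSA2 libraries (28.8 to 37.6).

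With IPI-549 present, many members of the interferon-stimulated, chemokine and inflammatory cytokine lists stood lower than with MSA2 alone. Il1a, the gene of the alarm cytokine IL-1α, was 51.2% lower in the combination than in MSA2, and Rgs2, a brake on G protein signalling, was 39.4% lower. Interferon-stimulated genes such as Rsad2 and chemokine genes such as Ccl3 and Ccl7 were lower in both combination libraries than in all 3 MSA2 libraries. Abcg1, a cholesterol exporter, and Cebpb, a transcription factor of myeloid cells, were higher. None of these differences passed the adjusted threshold in the fit of 8 libraries.

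By the quasi-likelihood F test of edgeR, adjusted by Benjamini-Hochberg, which is the source of all adjusted p-values below unless another tool is named, 0 of 14614 tested genes passed an adjusted p of 0.05 (0% higher and 0% lower). At an unadjusted p under 0.05 there were 1594 genes, 663 higher (4.54% of those tested) and 931 lower (6.37%). The smallest adjusted p was 0.0686, and the 7 genes under 0.1 were all lower in the combination. Other tools run on the same 8 libraries gave more: DESeq2 called 150 genes, 25 higher (0.191% of the genes it tested) and 125 lower (0.955%), and limma-voom called 3. All 150 genes of DESeq2 were without overlap between the 2 groups, but they were called on these same libraries, so this is no separate evidence. In the 8-library edgeR fit, MSA2 against Control gave 2140 genes higher (14.6%) and 1978 lower (13.5%), and the combination against Control gave 1097 higher (7.51%) and 786 lower (5.38%). These last counts share the Control libraries and are given side by side only. Combination and MSA2 libraries did not overlap in CPM at 2147 genes that were higher (14.7%) and 1845 that were lower (12.6%).

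**Figure D2:**
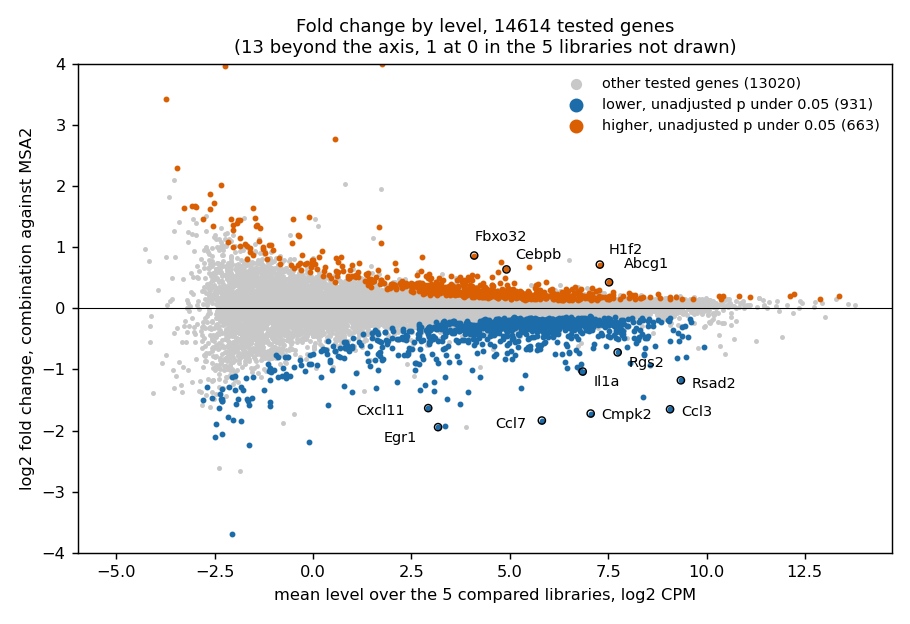
Log2 fold change of the combination against MSA2 (vertical axis) by mean level over the 5 compared libraries in log2 CPM (horizontal axis), 1 point per tested gene. Genes at an unadjusted p under 0.05 are coloured, 931 lower and 663 higher, and the larger differences at moderate and high levels, such as Ccl3, Ccl7 and Rsad2, lie below 0.

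The genes with the smallest p-values were chosen after their values were seen, as the 16 lower and 12 higher genes of smallest p with a mean of at least 5 CPM over the 5 compared libraries, no overlap and an established symbol. First among them was Il1a (ENSMUSG00000027399, chromosome 2, 129299610 to 129309972 in GRCm38), whose product is released by stressed or dying cells and signals through the IL-1 receptor. It stood at 163, 152 and 121 CPM in the MSA2 libraries, at 72.1 and 69.8 CPM in the combination libraries and at 11.8, 15.6 and 15.7 CPM in Control. Both combination libraries were thus below every MSA2 library and above every Control library. The log2 fold change of the combination against MSA2 was -1.04 ± 0.13 SE (adjusted p = 0.0686), and DESeq2 gave an adjusted p of 1.87e-12. Over its alternative settings the adjusted p of Il1a ran from 3.13e-30 to 1.

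Rgs2 (ENSMUSG00000026360, chromosome 1, 143999338 to 144004161) encodes a regulator that speeds the shut-off of Gq proteins downstream of their receptors. Its levels were 233, 277 and 252 CPM with MSA2, 154 and 154 CPM with the combination and 84.4, 83.2 and 100.2 CPM in Control, again with no overlap between the 3 groups. The difference between combination and MSA2 was -0.72 ± 0.10 SE (adjusted p = 0.0686; DESeq2, adjusted p = 7.98e-10). C5ar1 (ENSMUSG00000049130, chromosome 7, 16246743 to 16259540) encodes the receptor for the complement fragment C5a, a G protein-coupled receptor that activates PI3Kγ. It was at 63.6, 59.1 and 59.7 CPM with MSA2 and at 39.5 and 40.4 CPM with the combination, against 20.3, 24.6 and 25.3 CPM in Control. These groups differed by -0.61 ± 0.09 SE on the log2 scale (adjusted p = 0.0954; DESeq2, adjusted p = 5.09e-06). These genes were chosen for a small p and no overlap, so the distance between combination and MSA2 libraries is no separate evidence.

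Cxcl11 (ENSMUSG00000060183, chromosome 5, 92359544 to 92365485), an interferon-induced chemokine gene of the CXCR3 receptor, is annotated as a polymorphic pseudogene, since some mouse strains lack a functional copy. It had 13.3, 7.54 and 10.5 CPM with MSA2 and 3.48 and 3.20 CPM with the combination, and at most 0.0672 CPM in Control. The difference was -1.63 ± 0.22 SE (adjusted p = 0.0686; DESeq2, adjusted p = 3.40e-08). Rcan1 (ENSMUSG00000022951, chromosome 16, 92391953 to 92470867), a feedback inhibitor of calcineurin, was at 38.3, 39.8 and 37.3 CPM with MSA2 and at 27.8 and 27.3 CPM with the combination (-0.48 ± 0.07 SE, adjusted p = 0.0954). Zc3h12c (ENSMUSG00000035164, chromosome 9, 52111344 to 52168572), of the regnase family that degrades inflammatory mRNA, was at 115, 106 and 101 and 69.1 and 60.3 CPM (-0.73 ± 0.11 SE, adjusted p = 0.0954). Aim2 (ENSMUSG00000037860, chromosome 1, 173350879 to 173466040), a sensor of cytosolic DNA that builds an inflammasome, completed the 7 genes under an adjusted p of 0.1, with 105, 106 and 106 CPM against 81.9 and 68.9 CPM (-0.49 ± 0.08 SE, adjusted p = 0.0954). All 7 had risen with MSA2 against Control, with log2 fold changes from 1.16 (Rcan1) to 7.55 (Cxcl11), and all 7 were also higher in the combination than in Control, from 0.68 (Rcan1) to 5.92 (Cxcl11). At an adjusted p under 0.05, 14.6% of all tested genes rose with MSA2 and 7.51% with the combination. The 7 were chosen by their difference from the MSA2 libraries, which also enter MSA2 against Control, so the rise is no separate evidence.

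**Figure D3:**
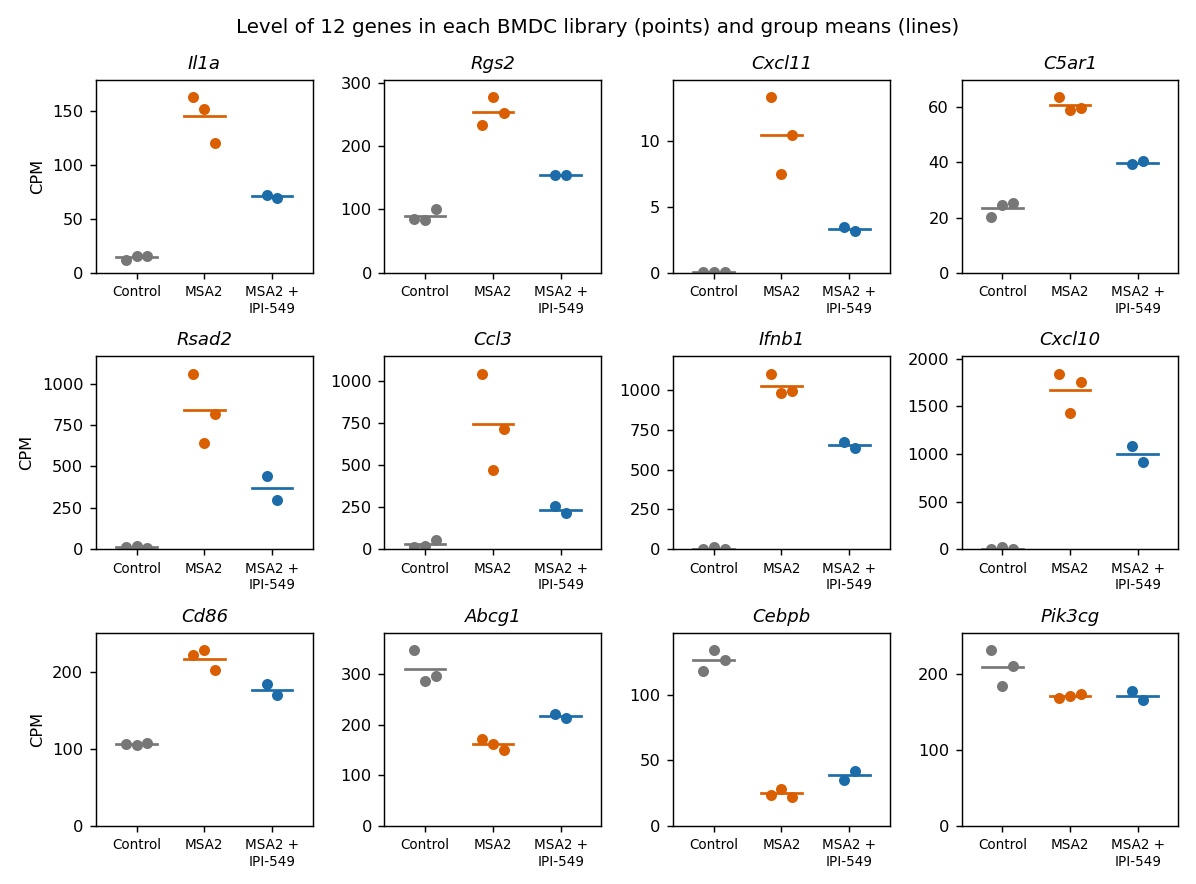
CPM of 12 genes in each BMDC library, with points for libraries (3 Control, 3 MSA2, 2 MSA2 plus IPI-549), lines for group means and each vertical axis starting at 0. Il1a, Rgs2, Cxcl11 and C5ar1 sit between Control and MSA2 in both combination libraries, Abcg1 and Cebpb rest between them from the other side, and Pik3cg overlaps with MSA2.

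Sequence was examined for genes that stood lower together, in the 250 bases before the RefSeq start of 10455 tested genes that matched a promoter by symbol (GRCm38.p6). On both strands, the core of the interferon-stimulated response element (ISRE, GAAANNGAA) was found in 7.90% of all these promoters, in 12% of those lower at an unadjusted p under 0.05 and in 13.5% of those lower by DESeq2. The AP-1 element TGACTCA was found in 4.12, 6.70 and 13.5% of the same 3 sets. For the STAT element TTCNNNGAA the shares were 7.27, 9.54 and 9.38%, for the CRE TGACGTCA 2.96, 3.99 and 5.21%, for the E-box CACGTG 9.85, 10.7 and 13.5%, and for the FOXO core GTAAACA 2.78, 2.85 and 3.12%. ISRE and STAT matches shared bases in 19 promoters. The shares were not tested, and a match is a match of letters, not a bound site. Windows of 4 lower genes are shown for how such a match lies upstream of the RefSeq start, with the match in capitals, up to 30 bases on each side and each read 5′ to 3′ along its gene, which is on the minus strand. The choice of AP-1 as the second element was made after the shares were seen. The RefSeq start is that of the gene's outermost GENCODE transcript for Il1a and Rsad2. For Rcan1 it is an internal start, 70789 bases inside the gene span given above, and for C5ar1 it lies 202 bases inside, so that these windows are within the GENCODE genes.
Il1a, chr2:129309973-129310014, AP-1 at 12 to 6 bases before the start: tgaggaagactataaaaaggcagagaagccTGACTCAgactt
Rcan1, chr16:92400152-92400218, AP-1 at 110 to 104 bases before the start: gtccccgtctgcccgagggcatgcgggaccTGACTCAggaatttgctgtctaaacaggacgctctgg
Rsad2, chr12:26456533-26456601, ISRE core on the opposite strand at 119 to 111 bases before the start: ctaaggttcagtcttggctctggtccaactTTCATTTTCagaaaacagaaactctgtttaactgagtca
C5ar1, chr7:16259366-16259434, ISRE core on the opposite strand at 66 to 58 bases before the start: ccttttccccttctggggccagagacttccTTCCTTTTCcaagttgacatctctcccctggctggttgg
The Rsad2 window also holds an AP-1 match, near its end.

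Most interferon-stimulated genes stood lower in the combination than with MSA2 alone, and most were above Control in both. Of 40 interferon-stimulated genes, all of them tested, 0 passed the adjusted test, 23 were lower and 0 higher at an unadjusted p under 0.05 (background 6.37 and 4.54%), and 26 were lower and 0 higher without overlap (background 12.6 and 14.7%), while 14 overlapped. Their median log2 fold change was -0.49, against 0.01 over all tested genes, and DESeq2 called 8 of them lower. Their summed level was 1182, 1093 and 1017 CPM in Control, 11280.1, 7952 and 10051 CPM with MSA2 and 7556 and 5946 CPM with the combination, so that both combination libraries were below every MSA2 library. Against Control, 33 of the 40 rose with MSA2 and 28 rose with the combination (14.6 and 7.51% over all tested genes). The combination had fewer libraries than MSA2, so these 2 counts are given side by side only. The 1 that fell with the combination against Control was Eif2ak2, the RNA-activated kinase PKR (-0.41, adjusted p = 0.0300).

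Rsad2, which encodes the antiviral enzyme viperin and whose ISRE window is printed above, stood at 1059.7, 642 and 817 CPM with MSA2, 443 and 298 CPM with the combination and 12, 16.8 and 9.54 CPM in Control. The difference of combination and MSA2 was -1.18 ± 0.25 SE (adjusted p = 0.174; without MSA2 replicate 2, 0.0387; over all alternatives, 6.43e-39 to 1). Cmpk2, a mitochondrial nucleotide kinase next to Rsad2 in the genome, was at 284, 103 and 166 CPM against 65.4 and 46.2 CPM (-1.72 ± 0.33 SE, adjusted p = 0.137). Ifih1, the RNA sensor MDA5, was at 487, 315 and 414 CPM against 271 and 204 CPM (-0.77 ± 0.16 SE, adjusted p = 0.181). The antiviral genes Mx2 (-0.98, adjusted p = 0.204), Zbp1 (-0.44, 0.185) and Irf7 (-0.60, 0.216), the last a transcription factor that amplifies interferon genes, were lower in both combination libraries too.

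Ifnb1 (ENSMUSG00000048806, chromosome 4, 88522025 to 88522774), the interferon gene that STING drives directly, had 1102, 981 and 991 CPM with MSA2 and 675 and 634 CPM with the combination, with a narrow spread within each group and no overlap. In Control it had 0, 11.2 and 0.0577 CPM. The fit of 8 libraries gave -0.65 ± 0.77 SE (95% interval -2.35 to 1.06, adjusted p = 0.812), where the uneven Control libraries enter the shared estimate of spread. Without Control replicate 2 the adjusted p was 0.0904, and in a fit of the 5 compared libraries alone it was 0.0309, within a range of 6.31e-12 to 1 over all its alternatives. Cxcl10, a chemokine that recruits CXCR3-bearing T cells, showed the same order: 1841, 1432 and 1754 CPM with MSA2, 1087 and 918 CPM with the combination and 1.73, 18.7 and 1.87 CPM in Control. Its log2 fold change was -0.74 ± 0.63 SE (adjusted p = 0.727; without Control replicate 2, 0.10; compared libraries alone, 0.0718; over all alternatives, 2.68e-15 to 1).

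Ifit1, which blocks translation of viral RNA, was at 3189, 2228 and 2909.5 CPM with MSA2 and 2191 and 1651 CPM with the combination (-0.53 ± 0.71 SE, adjusted p = 0.839). Combination replicate 1 was close to the lowest MSA2 library. Isg15, a ubiquitin-like modifier, was at 808, 580.1 and 594 CPM against 545 and 548 CPM (-0.27 ± 0.26 SE, adjusted p = 0.756). All 13 tested type I and III interferon genes rose with MSA2 and with the combination against Control (14.6 and 7.51% over all tested genes). Between combination and MSA2, 1 was lower and 1 higher at an unadjusted p under 0.05 (6.37 and 4.54% over all tested genes), with a median of -0.10. The lower one was Ifna4, at 22.6, 19.9 and 28.2 CPM against 16.1 and 12.7 CPM (-0.70, adjusted p = 0.385), and the higher one was Ifna12, which stayed under 0.3 CPM. Ifna genes are near copies, so reads could be split among them and each value is uncertain.

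The gene of STING itself, Sting1, stood at 98, 95.8 and 94.1 CPM with MSA2 and 99.1 and 99.99 CPM with the combination, a log2 fold change of 0.05 ± 0.07 SE (95% interval -0.09 to 0.20, adjusted p = 0.825). Among 22 tested genes of the STING pathway and its brakes, 6 were lower and 3 higher without overlap (12.6 and 14.7% over all tested genes), with a median of -0.04. At an unadjusted p under 0.05, 5 were lower and 0 higher (6.37 and 4.54% over all). They were Cgas, the DNA sensor, at 28.2, 16.3 and 19.4 CPM against 13.9 and 11.5 CPM (-0.73), Tbk1, the kinase that STING recruits, at 98.8, 96.1 and 99.3 CPM against 87.6 and 82.9 CPM (-0.20), and Irf7, Ifi204 and Usp18, which are also interferon-stimulated genes. Adjusted p-values ran from 0.204 (Ifi204) to 0.299 (Usp18). Ifi204 belongs to a family of near copies that share reads.

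**Figure D4:**
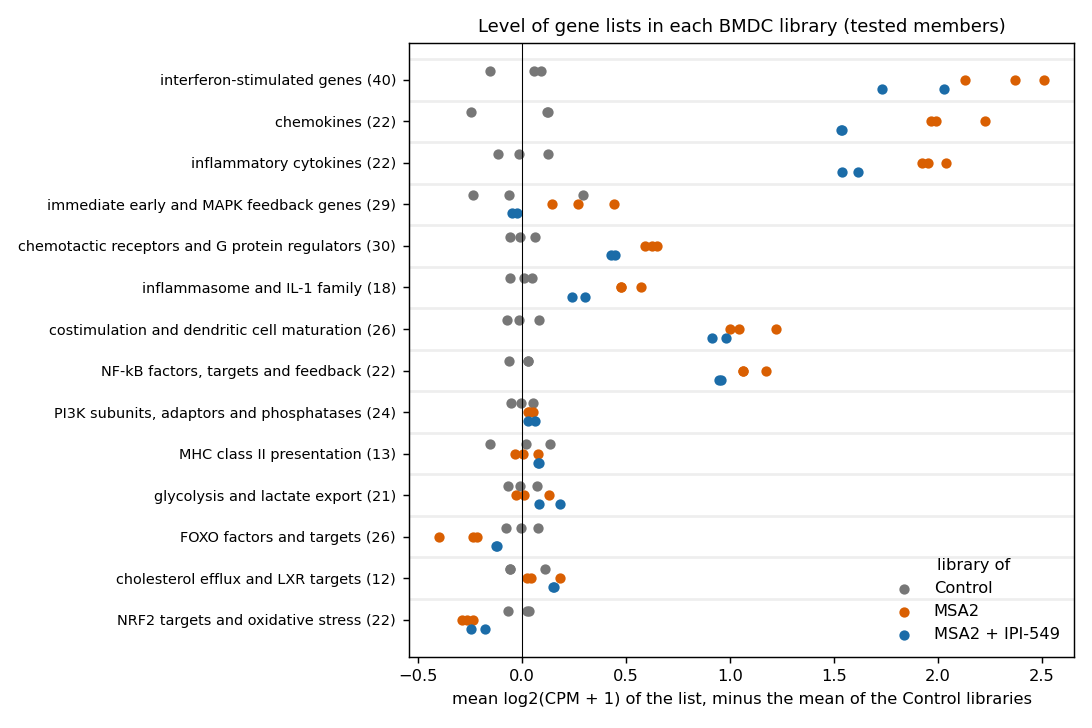
Mean log2(CPM + 1) over the tested members of 14 gene lists in each BMDC library, minus the mean of the 3 Control libraries (horizontal axis), with the number of tested members in brackets. Combination libraries are below all MSA2 libraries for the interferon, chemokine, cytokine, chemotactic receptor and inflammasome lists and above them for the FOXO list, and they overlap with MSA2 for the PI3K list.

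Inflammatory cytokine genes were lower in part. Of 22 tested, 10 were lower and 0 higher at an unadjusted p under 0.05 (6.37 and 4.54% over all tested genes), 0 passed after adjustment, 12 were lower and 0 higher without overlap (12.6 and 14.7% over all), and the median was -0.34. Il6, a cytokine of acute inflammation that also acts on B and T cells, was at 120.0, 164 and 129.8 CPM with MSA2 and at 76.7 and 70.5 CPM with the combination, with no more than 1.99 CPM in Control. The difference was -0.91 ± 0.23 SE (adjusted p = 0.243; compared libraries alone, 0.0372; over all alternatives, 2.87e-23 to 1). Tnf, a central inflammatory cytokine, was at 2239, 1503 and 1876 CPM against 1453 and 1204 CPM, and combination replicate 1 was close to the lowest MSA2 library (-0.49 ± 0.40 SE, 95% interval -1.38 to 0.39, adjusted p = 0.712). Il1b, the second classical ligand of the IL-1 receptor, was at 89.8, 127 and 78.8 CPM against 64.3 and 67.4 CPM (-0.59 ± 0.19 SE, adjusted p = 0.334).

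Among the IL-12 family, which steers T helper cells, the subunit genes differed in size. Il27, the specific subunit of IL-27, was at 15.1, 6.52 and 11 CPM with MSA2 and 5.30 and 3.98 CPM with the combination (-1.21 ± 0.30 SE, adjusted p = 0.224; DESeq2, adjusted p = 0.00299; over all alternatives, 1.05e-11 to 1). Its partner Ebi3 was at 32.1, 25.5 and 28 CPM against 28.3 and 28.9 CPM, a log2 fold change of 0.01 ± 0.10 SE (95% interval -0.21 to 0.22). Il12b, the shared subunit of IL-12 and IL-23, was at 142, 189 and 178 CPM against 146 and 130.3 CPM and overlapped (-0.29 ± 0.20 SE, adjusted p = 0.640), and Il12a stayed under 1 CPM in every library (-0.17 ± 0.31 SE). Il10, the gene of an inhibitory cytokine, fell below the count filter, with 20 counts over the 3 MSA2 libraries, 5 over the 2 combination libraries and 0 over Control. Further cytokine genes that were lower without overlap were Lif, a cytokine of the IL-6 family (28.4, 15.9 and 16.7 CPM against 8.63 and 6.92 CPM, -1.38, adjusted p = 0.127), and Tnfsf15, a ligand that costimulates T cells (822, 581 and 795 CPM against 454 and 381 CPM, -0.81, adjusted p = 0.227). The list shares Il1a, Il1b and their relatives with the inflammasome list.

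Chemokines are the ligands of many of the receptors that feed PI3Kγ. Of 22 tested chemokine genes, 9 were lower and 0 higher at an unadjusted p under 0.05 (6.37 and 4.54% over all tested genes), with a median of -0.35, 0 passed after adjustment, 11 were lower and 1 higher without overlap (12.6 and 14.7% over all), and 10 overlapped. Ccl7, a monocyte attractant, was at 111, 63.6 and 62.5 CPM with MSA2, 24.2 and 19.9 CPM with the combination and 2.21, 2.96 and 5.71 CPM in Control (-1.84 ± 0.31 SE, adjusted p = 0.127). Ccl2, which also attracts monocytes, was at 613, 353 and 373 CPM against 168 and 159 CPM (-1.45 ± 0.39 SE, adjusted p = 0.247). Ccl3, a ligand of CCR1, was at 1040.3, 470.3 and 712 CPM against 255 and 216 CPM (-1.65 ± 0.46 SE, adjusted p = 0.263). In each of these 3 genes MSA2 replicate 1 was far above the other MSA2 libraries, and both combination libraries were below all 3.

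Ccl12, another CCR2 ligand, was at 25.5, 12.8 and 16.6 CPM against 6.28 and 5.94 CPM (-1.57, adjusted p = 0.152). Cxcl9, an interferon-γ-responsive ligand of CXCR3, was low and uneven, at 5.86, 1.81 and 4.31 CPM against 1.99 and 1.15 CPM, and the groups overlapped (-1.31 ± 0.52 SE, adjusted p = 0.398). Neutrophil markers, some of which myeloid precursors also express, also varied between these libraries. Their summed level was 381, 263 and 370.2 CPM in the MSA2 libraries, 189 and 286 CPM in the combination libraries and 177, 351 and 119.6 CPM in Control. Of 11 tested neutrophil markers, 0 had an unadjusted p under 0.05 and 10 overlapped (median -0.30), the defining marker Ly6g was at most 0.404 CPM, and their part in the results was not tested. Monocyte and macrophage markers summed to 13939, 17048 and 15232 CPM with MSA2 and 15764 and 16699 CPM with the combination, most of it Lyz2 (10713 to 13691 CPM with MSA2). Dendritic cell markers summed to 14266, 13549 and 13707 and 14717 and 14846 CPM. Of 15 tested monocyte and macrophage markers, 6 were higher and 1 lower without overlap (14.7 and 12.6% over all tested genes). At an unadjusted p under 0.05, 1 was higher (Cd68, 0.17, adjusted p = 0.386) and 0 lower (4.54 and 6.37% over all). Of 16 tested dendritic cell markers, 4 were higher and 5 lower without overlap, and 0 were higher and 1 lower at that p. The lower one was Irf4, at 148, 143 and 124 CPM with MSA2, 115 and 112 CPM with the combination and 232, 184 and 242 CPM in Control (-0.29, adjusted p = 0.397). The part of these markers in the results was not tested.

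On the receptor side, 13 of 30 tested chemotactic receptors and G protein regulators were lower and 2 higher without overlap (12.6 and 14.7% over all tested genes). Their median was -0.18, and 0 passed after adjustment. At an unadjusted p under 0.05, 10 were lower and 0 higher (6.37 and 4.54% over all). Besides C5ar1 and Rgs2, they included Fpr2, a receptor for formylated peptides, at 88.7, 74 and 89 CPM with MSA2 and 65.4 and 59.8 CPM with the combination (-0.42 ± 0.12 SE, adjusted p = 0.284). Gna13, a G protein alpha subunit, was at 197, 195 and 188 CPM against 174 and 166 CPM (-0.19 ± 0.07 SE, adjusted p = 0.362). Ccr7, which guides mature dendritic cells to lymph nodes, stood at 263, 217 and 169 CPM against 198 and 238 CPM and overlapped fully (0.01 ± 0.17 SE, 95% interval -0.35 to 0.38).

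The target of IPI-549 was expressed at a like level with and without the inhibitor. Pik3cg (ENSMUSG00000020573, chromosome 12, 32173473 to 32208659) stood at 168, 171 and 173 CPM with MSA2, 178 and 165 CPM with the combination and 231, 184 and 210.3 CPM in Control. The log2 fold change of the combination against MSA2 was 0.01 ± 0.09 SE, with a 95% interval of -0.19 to 0.20. An inhibitor of the enzyme need not alter its mRNA, so this level does not check the labels. Pik3r5, the p101 regulatory subunit, was at 119, 109.6 and 114 CPM against 116 and 119 CPM (0.04 ± 0.07 SE, 95% interval -0.12 to 0.20). Pik3r6, the alternative regulatory subunit, was at 80.1, 59.9 and 72.7 CPM against 60.7 and 53.8 CPM (-0.31 ± 0.12 SE, adjusted p = 0.374), with a small overlap. In the list of 24 PI3K subunits, adaptors and phosphatases, 1 was lower (Pik3r6) and 1 higher (Pik3r2, 0.19) at an unadjusted p under 0.05 (6.37 and 4.54% over all tested genes). Without overlap, 4 were lower and 4 higher (12.6 and 14.7% over all), and the median was 0.03.

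FOXO transcription factors switch on genes of atrophy, stress resistance and quiescence. Of 26 tested FOXO factors and known FOXO targets, 5 were higher and 1 lower at an unadjusted p under 0.05 (4.54 and 6.37% over all tested genes), with a median of 0.15, 12 were higher and 3 lower without overlap (14.7 and 12.6% over all), and 0 passed after adjustment. Fbxo32, a ubiquitin ligase gene of FOXO-driven atrophy, was at 6.71, 15.8 and 15.9 CPM with MSA2, 22.9 and 24.1 CPM with the combination and 88.3, 84.4 and 72.9 CPM in Control (0.86 ± 0.26 SE, adjusted p = 0.294). MSA2 replicate 1 was lowest by far. Sesn1, a stress-induced inhibitor of mTORC1, was at 11.1, 14.6 and 14.4 CPM against 18.7 and 18.3 CPM (0.46 ± 0.14 SE, adjusted p = 0.299). Foxo3 was at 31, 32.9 and 32.1 CPM against 38 and 38.2 CPM (0.25, adjusted p = 0.286), Foxo1 at 7.05, 6.84 and 7.47 CPM against 9.16 and 8.57 CPM (0.32, 0.366), and Klf2, a quiescence factor, at 11.5, 10.9 and 17 CPM against 18.3 and 18.9 CPM (0.51, 0.414). Against Control, Fbxo32, Sesn1, Foxo1 and Foxo3 fell with MSA2 (log2 fold changes -2.66, -1.08, -0.73 and -0.65) and fell with the combination (-1.80, -0.62, -0.41 and -0.40). They were named for their difference from the same MSA2 libraries, so the fall with MSA2 is no separate evidence. Of 24 tested mTORC1-linked nutrient and sterol genes, 1 was lower (Hif1a, -0.23) and 0 higher at an unadjusted p under 0.05 (6.37 and 4.54% over all). Without overlap, 4 were lower and 3 higher (12.6 and 14.7% over all), and the median was -0.01.

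Immediate early genes, which growth factor, MAPK and stress signals switch on within minutes, were lower in part. Of 29 tested immediate early and MAPK feedback genes, 11 were lower and 1 higher at an unadjusted p under 0.05 (6.37 and 4.54% over all tested genes), with a median of -0.25, 16 were lower and 1 higher without overlap (12.6 and 14.7% over all), and 0 passed after adjustment. Egr1, a zinc finger factor, was at 22.2, 8.52 and 7.85 CPM with MSA2, 3.53 and 3.09 CPM with the combination and 1.59, 1.88 and 2.02 CPM in Control (-1.94 ± 0.41 SE, adjusted p = 0.174; DESeq2, adjusted p = 0.0275). Its relative Egr3 was at 23.6, 9.44 and 10.6 CPM against 3.73 and 3.86 CPM (-1.92 ± 0.42 SE, adjusted p = 0.186). Fos, a subunit of AP-1, was at 79, 34.1 and 45.3 CPM against 27 and 22.1 CPM (-1.10 ± 0.36 SE, adjusted p = 0.332), and Atf3, a stress-induced factor that also joins AP-1, at 595, 383 and 412 CPM against 255 and 232 CPM (-0.93 ± 0.24 SE, adjusted p = 0.237). For these 4 genes MSA2 replicate 1 was the highest library, and the combination libraries differed from each other by less than the MSA2 libraries did.

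Myc, a growth regulator, was at 20.8, 7.45 and 14.6 CPM with MSA2, 4.59 and 5.45 CPM with the combination and 10.2, 9.08 and 17.1 CPM in Control, so that both combination libraries were below all 6 others (-1.49 ± 0.39 SE, adjusted p = 0.247). Over all tested genes, both combination libraries were below the 6 other BMDC libraries at 340 (2.33%) and above them at 406 (2.78%). Of 25 tested MYC and ribosome biogenesis genes, 2 were lower, Myc itself and Nop58 (-0.29), and 0 higher at an unadjusted p under 0.05 (6.37 and 4.54% over all tested genes), with a median of 0.01.

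Maturation markers of dendritic cells differed in part. Of 26 tested costimulation and maturation genes, 8 were lower and 0 higher at an unadjusted p under 0.05 (6.37 and 4.54% over all tested genes), with a median of -0.15. Without overlap, 10 were lower and 0 higher (12.6 and 14.7% over all). After adjustment 0 passed, and DESeq2 called 4 lower. Cd40, the receptor through which T cells license dendritic cells, was at 46.2, 47.3 and 42.4 CPM with MSA2, 33.9 and 35.7 CPM with the combination and 9.30, 9.88 and 8.82 CPM in Control (-0.38 ± 0.08 SE, adjusted p = 0.174; DESeq2, adjusted p = 0.0123). Cd86, a ligand of the T cell receptor CD28, was at 222, 229 and 203 CPM against 185 and 170.2 CPM (-0.30 ± 0.07 SE, adjusted p = 0.219; DESeq2, adjusted p = 0.0190), and Cd80, the second CD28 ligand, at 199, 200.3 and 206 CPM against 153 and 142 CPM (-0.45 ± 0.12 SE, adjusted p = 0.247; DESeq2, adjusted p = 0.0143). In all 3 genes the combination libraries lay between the MSA2 and the Control libraries. Il15ra, which presents IL-15 to T and NK cells, was at 20.8, 18.5 and 17.8 CPM against 14.9 and 12 CPM (-0.50, adjusted p = 0.219).

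Cd274, the gene of the checkpoint ligand PD-L1, was at 532, 495 and 586 CPM with MSA2 and 548 and 505 CPM with the combination, against 244, 273 and 245 CPM in Control. The combination and MSA2 overlapped, and the 95% interval of the log2 difference ran from -0.22 to 0.16. Among 20 tested inhibitory ligands and receptors, 3 were lower and 2 higher at an unadjusted p under 0.05 (6.37 and 4.54% over all tested genes). The lower ones included Pvr, a ligand of the receptors TIGIT and CD226, at 62.3, 57.3 and 53.3 CPM against 44.3 and 40.0 CPM (-0.45, adjusted p = 0.323), and the higher ones Vsir, the gene of VISTA, at 106, 120.3 and 123 CPM against 132 and 138 CPM (0.21, adjusted p = 0.364). Antigen presentation genes differed little in size: of 21 MHC class I genes 1 was higher (H2-D1, 0.20) and 0 lower (median 0.03), and of 13 MHC class II genes 0 were higher and 0 lower at an unadjusted p under 0.05 (median 0.06). Without overlap, 1 was higher and 1 lower in class I, and 4 higher and 0 lower in class II (14.7 and 12.6% over all tested genes). The class II list summed to 19426, 18942 and 18479 CPM with MSA2 and to 20073 and 20220.5 CPM with the combination.

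In the NF-κB list, 6 of 22 tested genes were lower and 0 higher at an unadjusted p under 0.05 (6.37 and 4.54% over all tested genes), with a median of -0.15. Without overlap, 9 were lower and 0 higher (12.6 and 14.7% over all). Cflar, which restrains caspase 8, was at 408, 349.6 and 407 CPM with MSA2 and 299 and 260.0 CPM with the combination (-0.47 ± 0.09 SE, adjusted p = 0.137; DESeq2, adjusted p = 0.000337), and Tnfaip3, the feedback enzyme A20, was at 769, 647 and 764 CPM against 523 and 475 CPM (-0.54 ± 0.15 SE, adjusted p = 0.273). Of 18 tested inflammasome and IL-1 family genes, 9 were lower and 1 higher without overlap (12.6 and 14.7% over all), with a median of -0.17. At an unadjusted p under 0.05, 7 were lower and 0 higher (6.37 and 4.54% over all). Beside Il1a, Il1b and Aim2 they included the sensor genes Nlrc4, which responds to bacterial flagellin through NAIP proteins, at 38.2, 32.2 and 36.3 CPM against 25.6 and 21.3 CPM (-0.60 ± 0.11 SE, adjusted p = 0.127), and Nlrp3, which responds to membrane damage, at 141, 142 and 129.6 CPM against 108 and 106 CPM (-0.36 ± 0.12 SE, adjusted p = 0.334). Toll-like receptor genes gave 4 lower and 0 higher of 23 tested at an unadjusted p under 0.05 (6.37 and 4.54% over all). Without overlap, 6 were lower and 2 higher (12.6 and 14.7% over all). Tlr2, a receptor for bacterial lipopeptides, was at 764, 698 and 699.7 CPM against 619 and 541 CPM (-0.31, adjusted p = 0.336).

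**Figure D5:**
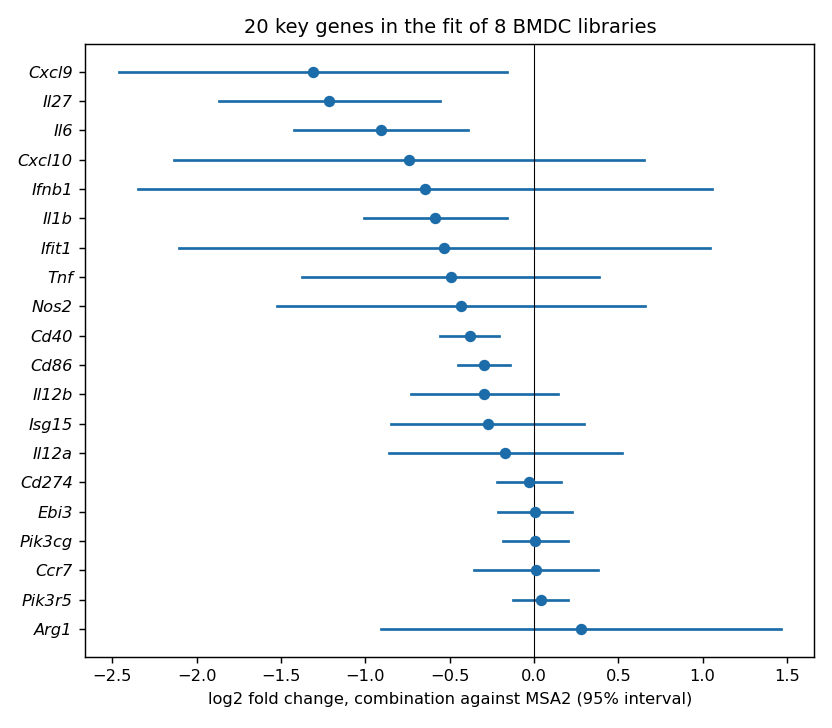
Log2 fold change of the combination against MSA2 (points) with 95% intervals (lines) for the 20 key genes that passed the count filter, from the fit of 8 BMDC libraries. Intervals of Il27, Il6, Il1b, Cd40, Cd86 and Cxcl9 lie below 0 before adjustment, and those of Pik3cg, Pik3r5, Cd274 and Ebi3 are narrow and include 0.

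Metabolic genes held both directions. Of 12 tested cholesterol efflux genes and targets of the sterol receptor LXR, 6 were higher and 1 lower at an unadjusted p under 0.05 (4.54 and 6.37% over all tested genes). Without overlap, 6 were higher and 1 lower (14.7 and 12.6% over all). The median was 0.19, and 0 passed after adjustment. Abcg1, which moves cholesterol to high density lipoprotein, was at 173, 163 and 150.4 CPM with MSA2, 222 and 213 CPM with the combination and 348, 288 and 297 CPM in Control (0.42 ± 0.09 SE, adjusted p = 0.179; DESeq2, adjusted p = 0.00471). Abca1, which loads lipid onto apolipoprotein A-I, was at 73.3, 88.4 and 73 CPM against 100.04 and 93.9 CPM (0.31 ± 0.10 SE, adjusted p = 0.342). The 1 lower member was Ch25h, an interferon-induced enzyme that makes an antiviral oxysterol, at 68.7, 41.1 and 44.8 CPM against 23.6 and 17.9 CPM (-1.31 ± 0.24 SE, adjusted p = 0.127; DESeq2, adjusted p = 0.0467). Of 21 tested cholesterol synthesis and uptake genes, 5 were lower and 4 higher without overlap (12.6 and 14.7% over all), with a median of -0.08. At an unadjusted p under 0.05, 5 were lower and 0 higher (6.37 and 4.54% over all). The lower ones included Fdft1, squalene synthase (83.9, 69.5 and 70.1 CPM against 61.1 and 58.4 CPM, -0.32, adjusted p = 0.263).

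Acod1, the enzyme that makes itaconate in activated myeloid cells, was at 1251, 946 and 1242 CPM with MSA2, 777 and 707 CPM with the combination and 97.5, 121 and 103 CPM in Control (-0.63 ± 0.13 SE, adjusted p = 0.158; DESeq2, adjusted p = 8.63e-05). Ptgs2, the inducible cyclooxygenase, was at 33.4, 51.1 and 30.5 CPM against 27.4 and 20.2 CPM (-0.69 ± 0.22 SE, adjusted p = 0.332). Arg1, arginase of alternatively activated myeloid cells, was at 34.7, 21.6 and 20.6 CPM against 24.6 and 37.4 CPM and overlapped (0.28 ± 0.54 SE), with Control as uneven, at 56.5, 32.1 and 7.93 CPM, and Nos2, the inducible nitric oxide synthase, did not exceed 1.79 CPM in any BMDC library (-0.43 ± 0.50 SE). In all, 5 of 17 tested immune metabolic enzymes were lower and 0 higher at an unadjusted p under 0.05 (6.37 and 4.54% over all tested genes), with a median of -0.15. Without overlap, 7 were lower and 2 higher (12.6 and 14.7% over all). Glycolysis and lactate export genes gave 9 higher and 2 lower of 21 without overlap (14.7 and 12.6% over all), with a median of 0.15. They gave 3 higher and 1 lower at an unadjusted p under 0.05 (4.54 and 6.37% over all). Aldoa (0.19), Pkm (0.19) and Tpi1 (0.24) were higher, and Hk2, the inducible hexokinase, lower (107, 82.8 and 89.2 CPM against 73.9 and 71 CPM, -0.36), with adjusted p-values from 0.374 (Hk2 and Pkm) to 0.439 (Aldoa).

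NRF2 targets gave 5 higher and 1 lower of 22 tested at an unadjusted p under 0.05 (4.54 and 6.37% over all tested genes), with a median of 0.07. Hmox1, heme oxygenase, was at 132, 119 and 120.2 CPM with MSA2 and 134 and 149 CPM with the combination (0.20, adjusted p = 0.364), whereas Nfe2l2, the gene of NRF2 itself, was the lower one, at 254, 260.1 and 225 CPM against 197 and 192 CPM (-0.34, adjusted p = 0.410). Among lysosome and autophagy genes 3 of 29 were higher and 1 lower at the same threshold. Without overlap, 11 were higher and 1 lower (14.7 and 12.6% over all). Tfeb, a master regulator of lysosome genes that mTORC1 keeps in the cytoplasm, was at 11.7, 14.1 and 11.2 CPM against 16.7 and 16.7 CPM and at 22, 19.6 and 21.3 CPM in Control (0.43 ± 0.11 SE, adjusted p = 0.222), and Ctsd, a lysosomal protease, was at 4032, 4235 and 4377 CPM against 4723 and 4956 CPM (0.20, adjusted p = 0.357).

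The higher genes of smallest p had varied functions. H1f2, a linker histone, was at 108, 139 and 125 CPM with MSA2, 194 and 215 CPM with the combination and 183, 197 and 147 CPM in Control (0.71 ± 0.12 SE, adjusted p = 0.127; DESeq2, adjusted p = 1.30e-05). Cebpb was at 23.5, 28.3 and 22.3 CPM against 35 and 42 CPM, with 119, 134 and 126 CPM in Control, so that the combination remained far below the untreated cells (0.64 ± 0.11 SE, adjusted p = 0.127; DESeq2, adjusted p = 6.08e-05). Akt1s1, which encodes the mTORC1 inhibitor PRAS40, an AKT substrate, was at 12, 12.7 and 11.5 CPM against 15.9 and 16.6 CPM and 20.9, 20.4 and 21.6 CPM in Control (0.42 ± 0.08 SE, adjusted p = 0.137). The other 9 had log2 fold changes from 0.26 to 0.54. Among them were Slc11a1, a metal transporter of phagosomes (73, 73.8 and 76 CPM against 87.9 and 90.3 CPM), Plec, a cytoskeletal linker (0.33), and Klhl21, an adaptor of a ubiquitin ligase (0.54). Against Control, H1f2, Cebpb, Akt1s1, Slc11a1, Plec and Klhl21 fell with MSA2, by log2 fold changes from -2.35 (Cebpb) to -0.50 (H1f2). Over all tested genes 13.5% fell with MSA2. These genes were chosen by their difference from the same MSA2 libraries, so the fall is no separate evidence.

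Of the other lower genes of smallest p, Hdc, which makes histamine, was at 15.5, 12.1 and 13 CPM with MSA2 and 7.77 and 6.81 CPM with the combination (-0.88 ± 0.16 SE, adjusted p = 0.127). Acsl1, which activates long-chain fatty acids, was at 182, 139 and 169.8 CPM against 116 and 103 CPM (-0.58 ± 0.10 SE, adjusted p = 0.127). Samd9l, an interferon-induced antiviral factor, was at 347, 316 and 353 CPM against 258 and 197 CPM (-0.57 ± 0.10 SE, adjusted p = 0.127), and Fgd4, an exchange factor for the small GTPase CDC42, at 61.3, 59.1 and 71.6 CPM against 46.6 and 37.4 CPM (-0.61 ± 0.11 SE, adjusted p = 0.127). In Control Fgd4 stood at 36.8, 38.8 and 40.5 CPM, a range that held the lower combination library but not the other, and it rose with MSA2 (0.72, adjusted p = 0.000206). Ncoa7 (-0.40) and Zfp456 (-0.77) were lower in both combination libraries too.

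The 95% interval of the log2 fold change, before any adjustment, had a median half-width of 0.24. It lay within a 1.5-fold change in either direction for 10027 tested genes (68.6%) and within a 2-fold change for 12079 (82.7%). For the remaining genes the interval reached past 2-fold in at least 1 direction.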

How the data were processed

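RNA sequencing libraries of BMDC were compared by treatment, with groups taken from titles. The deposited table holds expected counts per gene, which the authors estimated with RSEM 1.3.3 after cutadapt 4.8 and STAR 2.7.8a on GRCm38 (mm10), with FastQC 0.11.8 and MultiQC 1.20, per the submitters' processing notes. RSEM divides reads that match several genes among them. Strand and annotation release are not given in the sources used here, so overlapping and antisense genes are uncertain.

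Expected counts were rounded and fitted for the 8 BMDC libraries in 3 groups with edgeR 4.0.16 (R 4.3.3), using TMM factors, the default filter on low counts (14614 of 55491 genes kept) and the quasi-likelihood F test. The Control libraries share in the estimate of spread. Calls required a p under 0.05 after Benjamini-Hochberg adjustment over all tested genes. CPM use the TMM-scaled library totals. The fit was repeated with RLE or upper quartile factors, without a filter, with a stricter filter (1 CPM in 2 libraries), with DESeq2 1.42.0, limma-voom (limma 3.58.1) or glmTreat at 1.5-fold, on the 5 compared libraries only, with the title suffix as a block, and without each library in turn. The code was tested on simulated counts. Gene positions are from GENCODE M21, and promoters from RefSeq.

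The rule named up to 10 called genes per direction, up to 5 called genes per list, and 21 key genes. With 0 calls, only the key genes remained. Other genes were chosen after their values were seen: those of smallest p described above, the list members of smallest p under 0.05, and those outside both other groups. The comparison, the key genes and the 39 lists were chosen with earlier results of these data known. A test of the difference from B cells, meant for called genes, was therefore not run. Some genes that enter the counts are not reported here by name.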

Additional observations from a re-analysis of the deposited data

How the results depend on the processing

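Whether any gene passed depended on the tool, the filter and the libraries. Genes called were 0 with RLE factors, upper quartile factors, the stricter filter and glmTreat at 1.5-fold. Without a filter 561 passed, 106 higher and 455 lower, of which 548 are among the genes the default filter keeps; that fit estimated an infinite prior degrees of freedom, against 6.02 with the filter. DESeq2 called 150 (25 higher, 125 lower), of which 149 are also among the 561. Limma-voom called 3, 1 higher (Gm49519) and 2 lower (Il1a and Rgs2). The 5 compared libraries alone gave 13, 0 higher and 13 lower, 7 of them also called by DESeq2. Leaving out 1 library gave 0 to 99 genes, 0 to 16 higher and 0 to 83 lower. The 99 came without MSA2 replicate 2, the deepest library, and 53 of them are DESeq2 calls. Without MSA2 replicate 1 there were 6, without MSA2 replicate 3 there was 1, and without Control replicates 1, 2 and 3 there were 3, 1 and 5. Without either combination library there were 0, where the lone sample left is assumed to vary like the other groups, and the smallest adjusted p was 0.165 without replicate 1 and 0.998 without replicate 2. The cause of these differences was not tested.

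Over 17 settings, 2970 values of the 175 tested genes listed by name were compared with the 8-library fit. Of these, 211 passed where the 8-library fit did not, and 21 had no test call and moved. The class of reversals held 0 values, but it did not take in every change of sign. Ebi3, which was not called, had a log2 fold change of 0.0063 in the 8-library fit and -0.0047 by DESeq2. Title suffixes were tried as a replicate block, which gave 0 calls, 1249 genes at an unadjusted p under 0.05 and a smallest adjusted p of 0.116. The deviations of same-suffix libraries from their group means had correlations from -0.11 to 0.13, over 0.1 in 1 of 7 pairs, so the suffix was not taken as a pairing. Precision is limited by the 2 combination libraries. The alternatives for a difference from B cells were not run, since no gene was called.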

Other observations

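Some genes stood in the combination outside the range of both other groups, and these were chosen after their values were seen. Both combination libraries were above all 6 other BMDC libraries at 406 of 14614 tested genes (2.78%) and below them at 340 (2.33%), of which 121 and 109 had an unadjusted p under 0.05 against MSA2. Osm, the gene of oncostatin M, a cytokine of the IL-6 family made by myeloid cells, was at 12.1, 12.2 and 7.65 CPM with MSA2, 5.85 and 6.11 CPM with the combination and 12.1, 14.3 and 15 CPM in Control. Against MSA2 the log2 fold change was -0.84 ± 0.19 SE (adjusted p = 0.193; DESeq2, adjusted p = 0.00230), and against Control it fell with the combination (-1.21, adjusted p = 0.00146). Hcar2, a G protein-coupled receptor for niacin and ketone bodies, was at 94.2, 115 and 95.6 CPM, 69.4 and 63.7 CPM and 75.2, 70.0 and 112 CPM in the same order (-0.61 ± 0.17 SE, adjusted p = 0.273). Adora3, an adenosine receptor that couples to Gi, was at 22.1, 19.3 and 16.4 CPM, 13.3 and 14 CPM and 18, 14 and 17.8 CPM (-0.50 ± 0.14 SE, adjusted p = 0.266), with the lowest Control library only just above the combination. Zfp445, a zinc finger protein of genomic imprinting, was at 57.9, 56.9 and 60.3 CPM, 49.3 and 45.9 CPM and 63, 65.1 and 63.6 CPM (-0.29 ± 0.07 SE, adjusted p = 0.186), and it fell with the combination against Control (-0.43, adjusted p = 0.00129). On the high side, Zfp771 was at 7.0, 7.25 and 6.20 CPM, 9.16 and 9.83 CPM and 7.63, 8.54 and 8.25 CPM (0.47 ± 0.11 SE, adjusted p = 0.204), and Trim28, a corepressor that silences transposons, at 119, 107 and 108 CPM, 127 and 131 CPM and 126, 121 and 118 CPM (0.21 ± 0.07 SE, adjusted p = 0.313).

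Histone genes were taken by symbol after the values were seen, because H1f2 was among the genes of smallest p, so their counts are a description only. Of 46 tested histone genes, 26 with a mean under 1 CPM over the 5 compared libraries, 9 were higher and 0 lower than with MSA2 at an unadjusted p under 0.05 (background 4.54 and 6.37%), 12 were higher and 2 lower without overlap (background 14.7 and 12.6%), and the median log2 fold change was 0.22. DESeq2 called 3 of them, H1f2, H2bc4 and H2ac19. H2bc4, a core histone, was at 30.6, 42.8 and 35.4 CPM with MSA2, 54.5 and 61.4 CPM with the combination and 48.4, 57.5 and 41 CPM in Control, and H1f0, a linker histone of cells that do not divide, at 102, 108 and 95.4 CPM, 119 and 121 CPM and 119.9, 116 and 113 CPM. Cell cycle and DNA replication genes, 1 of the 39 lists, had 1 higher and 4 lower of 29 tested at the same threshold and a median of -0.01. Core histone genes are near copies of each other, so single values are uncertain, and how RNA was selected for the libraries is not given in the sources used here.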
